A study of Mus musculus with 19 samples.

Results

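Ovaries of CD-1 mice, an outbred stock, were compared between gestation day (gd) 14 and gd12, the interval in which female germ cells leave mitotic proliferation and enter meiosis. The comparison took the 3 arrays titled gd14 against the 3 titled gd12, 6 of the 19 arrays of the series. All samples were wild-type, untreated whole ovaries of time-mated females, mated within 2 hours, at Theiler stage 20 for gd12 and 22 for gd14. The labels describe each gd12 and gd14 sample as a pool of 3, but the series' own text gives the pair of ovaries of 1 animal per sample, each from another dam. The arrays hold no cell sorting, so every value is an average over germ cells, gonadal somatic cells, vessels, blood and any adjoining tissue taken with the organ. In such bulk RNA, fewer cells of a type and less RNA per cell cannot be told apart. The other ovary arrays, 3 each at gd11, gd16, gd18 and postnatal day (pnd) 2, were used for the estimate of spread and to follow genes beyond gd14.

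Meiosis in the fetal ovary begins when retinoic acid and bone morphogenetic protein signals act on germ cells that the RNA-binding protein DAZL has made competent. STRA8, with its partner MEIOSIN, then switches on the genes of meiotic prophase. Sister chromatids are held by cohesins with meiosis-specific subunits and organised along an axis. SPO11 cuts the DNA, DMC1 pairs the cut ends with the homologous chromosome, and the synaptonemal complex zips the homologues together while telomeres, tethered to the nuclear envelope, move them. Before this switch the same cells, as primordial germ cells, carry a pluripotency programme, and many germline genes are held silent by DNA methylation and by a Polycomb complex that contains PCGF6, E2F6, MGA and MAX.

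The arrays of a stage were alike. Pearson correlations over all tested probe sets were 0.9733 to 0.9774 among the gd12 arrays, 0.9746 to 0.9795 among the gd14 arrays and 0.9461 to 0.9654 between the stages. The 3′ to 5′ signal ratio of beta-actin, a sign of RNA quality, was 2.26 to 2.33 at gd12 and 2.43 to 2.83 at gd14, without overlap, while that of Gapdh overlapped (3.48 to 4.28 and 4.09 to 4.96). The part of this shift in the results was not tested. As for the labelled organ, Xist, the RNA of the inactive X chromosome, had signals of 11748 to 18576 on these 6 arrays. Signals of the Y-linked genes were below the filter of 116.05 and were not tested: Eif2s3y reached 13.6, Uty 45.7 and Kdm5d 62.8. Sry reached 100.3 and 73.9 on gd12 samples 13 and 15 and at most 37.6 on the other arrays. The Sertoli cell products Amh and Sox8 reached 5.28 and 13.4. One gd16 library, sample 7, stood apart with an Xist signal of 44.8. It entered the comparison of gd14 with gd12 through the shared estimate of spread, and the fit without it called 4536 probe sets in place of 4355. It also entered the gd16 means and the comparison with gd16 to gd18, whose values are given with and without it.

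Between gd12 and gd14, 4355 of 26431 probe sets (16.5%) were called by limma at an adjusted p under 0.05. Higher at gd14 were 2491 (9.42%), and lower were 1864 (7.05%). Taking 1 probe set per gene, 1455 of 12592 genes (11.6%) rose and 1009 (8.01%) fell. The rises were larger: 156 of the genes that rose did so by at least 4-fold and 30 by at least 16-fold, against 36 and 3 of those that fell. Changes are given on the scale of log2(signal + 31), which understates those of dim genes, and the median over all genes was -0.02. The count of genes that fell depended on single arrays. Leaving out gd12 sample 15 gave 511, gd12 sample 13 gave 561, gd14 sample 10 gave 623 and gd14 sample 12 gave 657. The count of genes that rose was 1007 to 1439 with any 1 of the 6 arrays left out. For all called probe sets, omitting gd12 sample 15 gave 2605 and omitting gd12 sample 13 gave 2700.

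**Figure D1:**
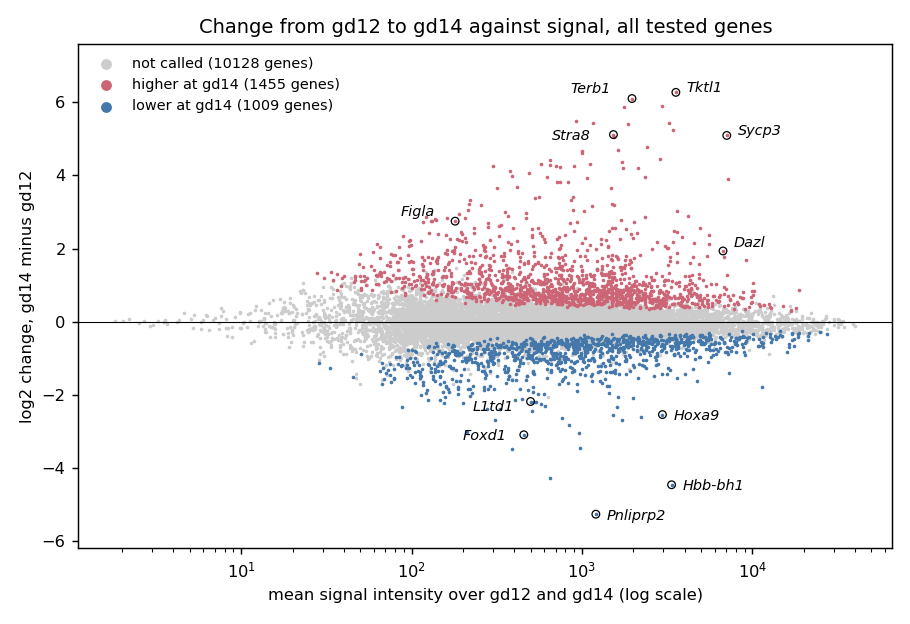
Log2 change from gd12 to gd14 (vertical axis) against the mean signal over both stages (horizontal axis, log scale) for 12592 genes, 1 point each. Red points are the 1455 genes called higher and blue points the 1009 called lower at gd14; circled genes are named in the text, and the rises reach 6.28 while the falls reach -5.27.

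Among the regulators of meiotic entry, 7 of 12 tested genes rose and 1 fell, with a median log2 change of 0.82. Stra8, the retinoic acid-induced activator of the meiotic programme, had signals of 10.8, 135 and 57.6 at gd12 and 2189, 3199.7 and 3583 at gd14. All gd14 arrays lay above all gd12 arrays, and the highest gd12 value came from sample 14. Stra8 rose by 5.12 ± 0.47 (SE) on the log2 scale (adjusted p = 4.41e-07). Its level was low again later, with means of 70.1 ± 43.4 (SD, n = 3) at gd16 and 52.5 ± 26.4 at pnd2. Meioc, an RNA-binding partner of YTHDC2 that keeps germ cells in meiotic prophase, read 42.0, 190.4 and 25.3 at gd12 and 6957, 4555 and 5921 at gd14. It rose by 5.89 ± 0.43, and by 6.49 without gd12 sample 14. Ythdc2 itself, an RNA helicase, was already present at gd12 and rose by 1.02 ± 0.22. Rbm46, another RNA-binding protein needed for meiotic entry, rose by 1.43 ± 0.31. Taf4b, a germline subunit of the TFIID transcription factor, rose by 2.27 ± 0.24.

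Dazl, which gives germ cells the competence to respond to the entry signal, was well expressed before entry. Its signals were 2989.9, 4949 and 1285 at gd12 and 8934, 10329 and 11854 at gd14, and it rose by 1.93 ± 0.40 (adjusted p = 0.00271). Here gd12 sample 14 was again the highest of its stage and sample 15 the lowest. Mga, which forms the germline-repressing Polycomb complex with Max and E2f6, rose by 0.62 ± 0.12, whereas Max did not pass the test (0.48 ± 0.27, adjusted p = 0.257). E2f6 fell by 0.51 ± 0.15 (adjusted p = 0.0265), a call that was lost without gd14 sample 10 (adjusted p = 0.0742), gd14 sample 12 (0.106), gd12 sample 13 (0.0689), gd12 sample 14 (0.0507) or gd12 sample 15 (0.0846). Further regulators did not pass: Zglp1, a transcription factor downstream of bone morphogenetic proteins (0.34 ± 0.30), and the homeobox genes Msx1 (0.32 ± 0.29) and Msx2 (0.25 ± 0.33). The gene of the STRA8 partner MEIOSIN was not analysed here.

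The genes that make, carry and sense retinoic acid moved in both directions. Of 14 tested genes 1 rose and 5 fell (median -0.42). Aldh1a1, a retinaldehyde dehydrogenase that makes retinoic acid, had signals of 1036, 2094 and 914 at gd12 and 6566, 5599 and 7012 at gd14. It rose by 2.31 ± 0.22 (adjusted p = 5.17e-07) and reached 11900 ± 891 at pnd2. The related enzyme Aldh1a2 had signals of 8554, 4446 and 7904 at gd12 and 5478, 3268 and 3520.1 at gd14. Its arrays overlapped between stages, and its fall of 0.75 ± 0.24 (adjusted p = 0.0387) was lost without gd14 sample 11 (adjusted p = 0.152), gd14 sample 12 (0.127), gd12 sample 13 (0.182) or gd12 sample 15 (0.155). Cyp26b1, the enzyme that degrades retinoic acid and shields germ cells from it in the testis, read 311, 249 and 307 at gd12 and 156, 118 and 113 at gd14. It fell by 1.0 ± 0.21 (adjusted p = 0.00269) with no overlap. Rarb, a retinoic acid receptor that is itself a classical target of the signal, fell by 1.37 ± 0.32.

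The retinoic acid-binding proteins Crabp1 and Crabp2 fell by 1.05 ± 0.33 and 1.23 ± 0.38. Both calls were lost without gd14 sample 10, gd14 sample 12, gd12 sample 13 or gd12 sample 15 (adjusted p 0.0853 to 0.202), and that of Crabp1 also without gd14 sample 11 (0.0762). With 1 array left out, the number of these genes that fell was 2 without gd14 sample 12, gd12 sample 13 or gd12 sample 15, and 3 without gd14 sample 10 or gd14 sample 11. Not called were Rdh10 (-0.55 ± 0.24), which makes retinaldehyde, the third synthesising enzyme Aldh1a3 (-0.29 ± 0.29), Dhrs3 (-0.14 ± 0.22), Stra6 (-0.63 ± 0.31), Rbp4 (1.20 ± 0.54) and the receptors Rarg (-0.17 ± 0.27), Rxra (-0.12 ± 0.18) and Rxrb (-0.17 ± 0.21). Rdh10 was called lower without gd12 sample 14 (-0.88, adjusted p = 0.00866).

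The chromosome axis and the synaptonemal complex had the highest share of genes that rose among the lists. Of 15 tested genes 13 rose and none fell, with a median of 3.97, and 13 rose with any 1 of the 6 arrays left out. At an unadjusted p under 0.05 the number changed was 14. Sycp3, a lateral element protein of the complex, had signals of 319, 738 and 201 at gd12 and 16380.1, 10931 and 13893 at gd14. It rose by 5.10 ± 0.33 (adjusted p = 5.84e-09), and each gd14 signal was far above the highest gd12 signal, that of sample 14. Its partner Sycp2 read 41.2, 95.0 and 47.4 at gd12 and 3769.8, 2291 and 2982 at gd14 and rose by 5.06 ± 0.25. Sycp1, the transverse filament that bridges the homologues, was close to zero at gd12. Its signals were 1.92, 40.1 and 22.8 at gd12 and 3599, 1473 and 1843 at gd14, a rise of 5.44 ± 0.32 (adjusted p = 1.98e-09).

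The central element showed the same direction. Tex12 had signals of 41.5, 104 and 34.8 at gd12 and 4148, 3406 and 3482 at gd14 and the smallest adjusted p of the comparison's 15 largest rises (1.66e-10), with a change of 5.42 ± 0.24. Syce1, Syce3 and Six6os1 (listed as 4930447C04Rik) rose by 3.92 ± 0.27, 3.97 ± 0.30 and 4.21 ± 0.33. For Syce2 the signals were 2039, 2579 and 1663 at gd12 and 10474, 8625 and 8225 at gd14, and its rise of 2.12 ± 0.21 was the smallest of the 13. The HORMA-domain proteins Hormad1 and Hormad2, which load on unsynapsed axes, rose by 4.61 ± 0.30 and 2.80 ± 0.42. Trip13, the ATPase that removes them, did not pass the test (-0.32 ± 0.13, adjusted p = 0.112), and neither did Sycp2l (0.68 ± 0.49), which was higher at pnd2 (907 ± 75.7).

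The meiosis-specific cohesin subunits, counted in the same list, also rose. Rec8, the kleisin that replaces RAD21, had signals of 33.6, 196 and 24.5 at gd12 and 911, 1339 and 1763 at gd14. It rose by 3.82 ± 0.41, and by 4.47 without gd12 sample 14, the array with the highest gd12 value. Stag3 read 562, 693 and 396 at gd12 and 4543, 3793 and 3996 at gd14 and rose by 2.86 ± 0.26, from a gd12 level well above the filter of 116.05. Smc1b read 140.4, 237 and 8.49 at gd12 and 3218, 2787 and 3421 at gd14, a rise of 4.70 ± 0.43 that was 3.88 without gd12 sample 15, where it was lowest. For their mitotic counterparts the counts were lower. Of 13 tested mitotic cohesin genes and regulators 2 rose and 2 fell (median 0.17), against 11.6% and 8.01% of all genes. Stag2 (-0.04 ± 0.15) did not pass. Rad21 did not pass by its brightest probe set (-0.38 ± 0.16), but another fell by 0.87 (adjusted p = 0.00149), and the mean over its probe sets was called lower (-0.56, adjusted p = 0.00632). Smc1a fell by 0.39 ± 0.13 (adjusted p = 0.045), a call that was lost with any 1 of gd14 samples 10, 11 and 12 and gd12 samples 13 and 15 left out (adjusted p 0.0734 to 0.21), when 1 gene fell, and with the mean over its probe sets (0.411). Esco2, which acetylates cohesin during DNA replication, rose by 2.02 ± 0.27, and Esco1 by 0.90 ± 0.16. Another probe set of Esco2 did not pass (1.10, adjusted p = 0.0911). Cdca5 (sororin), which protects cohesin in mitotic cells, fell by 0.90 ± 0.15 (adjusted p = 0.000472).

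**Figure D2:**
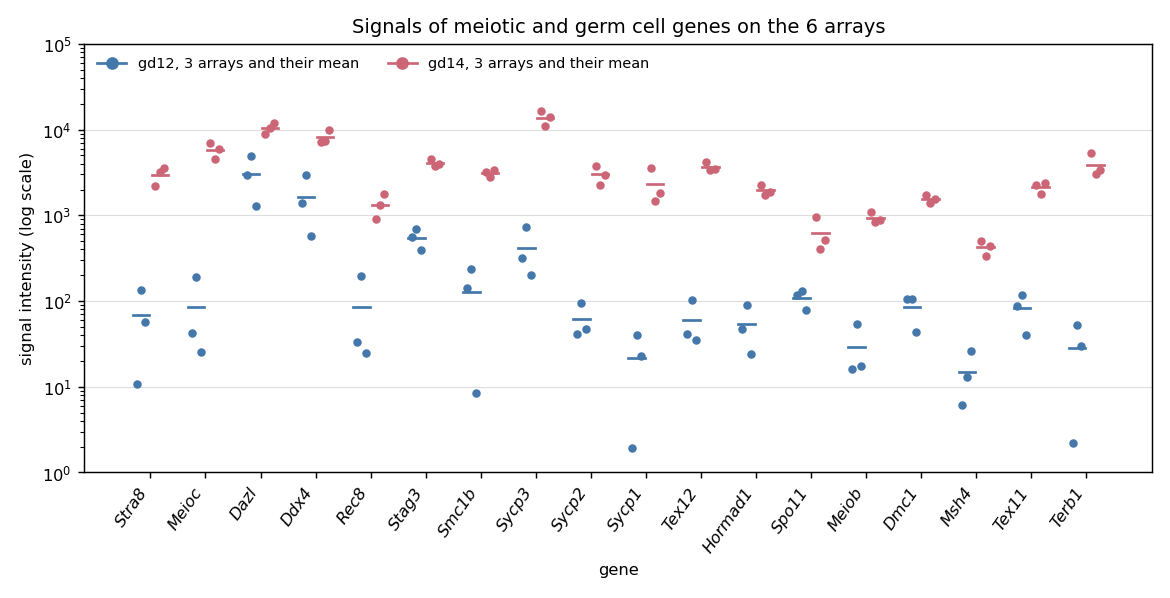
Signal intensity (vertical axis, log scale) of 18 meiotic and germ cell genes on the 3 gd12 arrays (blue) and the 3 gd14 arrays (red); points are arrays and bars are stage means. In each gene the 3 gd14 points lie above the 3 gd12 points, from Stra8 (gd12 at most 135) to Dazl (gd12 up to 4949).

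The start regions of 6 genes that rose are shown as examples, because the genes moved together and the windows differ in the letters they hold. Each is the strand of the gene from 250 bases before to 20 after the RefSeq start on GRCm38.p6. Syce2 and Hormad1 had 2 windows each, of which 1 is shown. Capitals mark matches, on either strand, to CNCCTCAG (the motif reported for STRA8 and MEIOSIN), GGCGGGAA (the motif of E2F6) or CACGTG (the E-box bound by MAX and MGA, which reads the same on both strands). The Stra8 window held none of the 3 and the Tex12 window 1 of each. The Syce2 window also held 1 of each, with its CNCCTCAG match on the reverse strand overlapping GGCGGGAA by 4 bases. The Sycp3 window held 2 matches to CACGTG, that of Hormad1 held 1 to GGCGGGAA and 2 to CACGTG, and that of Gpat2 (a piRNA pathway gene, described further on) held 2 to CNCCTCAG.
Stra8 (chr6:34920698-34920967, + strand): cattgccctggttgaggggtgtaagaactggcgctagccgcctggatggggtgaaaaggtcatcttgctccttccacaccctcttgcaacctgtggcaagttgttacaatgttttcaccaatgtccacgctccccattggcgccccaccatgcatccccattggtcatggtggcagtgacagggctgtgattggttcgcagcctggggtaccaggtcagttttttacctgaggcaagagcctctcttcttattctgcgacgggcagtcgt
Tex12 (chr9:50561249-50561518, - strand): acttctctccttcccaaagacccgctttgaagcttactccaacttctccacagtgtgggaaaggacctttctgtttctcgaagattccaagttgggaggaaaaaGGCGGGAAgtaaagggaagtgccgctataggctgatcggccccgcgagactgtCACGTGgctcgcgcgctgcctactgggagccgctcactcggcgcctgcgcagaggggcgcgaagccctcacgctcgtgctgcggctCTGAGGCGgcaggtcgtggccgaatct
Syce2 (chr8:84872008-84872277, + strand): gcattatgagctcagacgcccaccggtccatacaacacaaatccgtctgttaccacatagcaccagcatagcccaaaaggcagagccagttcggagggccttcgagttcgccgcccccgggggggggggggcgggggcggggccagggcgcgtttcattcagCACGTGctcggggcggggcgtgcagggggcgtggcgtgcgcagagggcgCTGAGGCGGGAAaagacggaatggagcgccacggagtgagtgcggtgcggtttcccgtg
Sycp3 (chr10:88459337-88459606, + strand): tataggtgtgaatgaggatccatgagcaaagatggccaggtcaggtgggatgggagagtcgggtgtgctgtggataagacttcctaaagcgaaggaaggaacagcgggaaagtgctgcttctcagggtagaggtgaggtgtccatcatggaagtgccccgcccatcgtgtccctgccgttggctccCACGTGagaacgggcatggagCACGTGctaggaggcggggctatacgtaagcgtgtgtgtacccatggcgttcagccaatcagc
Hormad1 (chr3:95559427-95559696, + strand): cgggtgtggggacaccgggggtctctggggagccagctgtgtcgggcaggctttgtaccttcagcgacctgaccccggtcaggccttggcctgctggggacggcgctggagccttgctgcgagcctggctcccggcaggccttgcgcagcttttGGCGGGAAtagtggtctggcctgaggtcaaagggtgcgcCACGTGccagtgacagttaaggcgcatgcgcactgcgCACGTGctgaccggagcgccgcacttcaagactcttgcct
Gpat2 (chr2:127424949-127425218, + strand): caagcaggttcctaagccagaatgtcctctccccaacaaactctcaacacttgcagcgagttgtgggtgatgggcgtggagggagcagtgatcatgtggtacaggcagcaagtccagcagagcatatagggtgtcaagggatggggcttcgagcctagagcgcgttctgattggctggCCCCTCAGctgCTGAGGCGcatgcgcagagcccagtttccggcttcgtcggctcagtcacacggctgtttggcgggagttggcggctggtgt

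Over all 32851 RefSeq windows of 300 bases, CNCCTCAG was found in 7.94%, GGCGGGAA in 2.19% and CACGTG in 7.15%. Windows of tested genes held them in 9.17%, 3.93% and 9.65%. Among the 1527 windows of genes that rose the shares were 14.7%, 5.04% and 9.82%, and among the 167 windows of genes that rose by at least 4-fold they were 23.4%, 7.19% and 14.4%. Windows of the genes that fell had 5.52%, 3.52% and 9.61%. The 16 windows of the 13 axis and synaptonemal complex genes that rose held CNCCTCAG in 5, GGCGGGAA in 4 and CACGTG in 8. All 15 of the largest rises had a window, and CNCCTCAG was found in 4, GGCGGGAA in 1 and CACGTG in 4. Tktl1, Terb1, Meioc, Tex101, Tex16, Rhox13, Stra8, Sycp2 and Smc1b held none of these motifs. Of the 15 largest falls 10 had a window, and the counts were 0, 0 and 1. The DR5 and DR2 forms of the retinoic acid response element, direct repeats of AGGTCA with 5 or 2 bases between, were searched as exact letters only. Each was found in 3 of all windows (0.00913%) and in none of the genes that rose. At so low a share their absence there tells nothing about the genes that rose. Windows of 1 gene can overlap, and a match describes letters only.

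Of the genes for meiotic DNA breaks and strand exchange, 13 of 16 tested rose and none fell (median 1.91); the count was 12 or 13 with 1 array left out. Dmc1, the meiotic recombinase, had signals of 105, 107 and 43.8 at gd12 and 1742, 1405 and 1536 at gd14. It rose by 3.82 ± 0.26 (adjusted p = 9.87e-09) without overlap, and a second probe set by 4.21. Meiob, a single-strand DNA-binding protein, rose by 4.06 ± 0.23, and Hsf2bp, which brings BRCA2 to the breaks, by 3.23 ± 0.29, although another probe set of Hsf2bp did not pass (0.74, adjusted p = 0.166). Prdm9, the methyltransferase that chooses break sites, read 10.4, 39.4 and 30.6 at gd12 and 559.6, 435 and 462 at gd14 and rose by 3.19 ± 0.30. Tex15, a germline protein needed for break repair, rose by 3.03 ± 0.28. Partners of DMC1 that also serve mitotic cells did not pass: Psmc3ip (0.17 ± 0.17) and Sfr1 (0.31 ± 0.11, adjusted p = 0.0572, or 0.0447 with the mean over its probe sets). Spo11, the enzyme that makes the breaks, was named outside the rule and after its values were seen. Its signals were 117, 130.3 and 78.6 at gd12 and 969, 402 and 523 at gd14, with gd14 sample 10 the highest, and it rose by 2.17 ± 0.33 (adjusted p = 0.000164).

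Crossover and mismatch repair genes were split. Of 10 tested genes 4 rose and 1 fell (median 0.38), against 11.6% and 8.01% of all genes. Cntd1, a member of this list, was counted as not called by its brightest probe set (0.16 ± 0.10, adjusted p = 0.306). Its other probe sets rose by 2.06 (adjusted p = 9.61e-07) and 0.89 (0.049). The mean over its probe sets was called higher (1.04, adjusted p = 9.23e-06). Tex11, an X-linked crossover factor, had signals of 88.3, 118 and 40.2 at gd12 and 2268, 1759 and 2399 at gd14 and rose by 4.32 ± 0.30. Msh4, the meiotic MutS homologue, read 6.13, 13.2 and 25.9 at gd12 and 498, 340.1 and 439 at gd14, with all gd12 arrays near zero, and rose by 3.32 ± 0.23. Ccnb1ip1 (HEI10), which marks future crossovers, rose by 2.78 ± 0.21. The mismatch repair gene Pms2 rose by 0.79 ± 0.16, but the mean over its probe sets did not pass (0.28, adjusted p = 0.129). Msh6 fell by 0.47 ± 0.15, a call that was lost without gd14 sample 10 (adjusted p = 0.206), gd12 sample 13 (0.107), gd12 sample 14 (0.0877) or gd12 sample 15 (0.0529).

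At the telomeres, 6 of 9 tested genes rose and none fell (median 0.73); 5 to 6 rose with 1 array left out, and 1 fell without gd14 sample 10. Terb1, Terb2 and Majin form the complex that ties meiotic telomeres to the nuclear envelope. Terb1 had signals of 2.23, 53.0 and 29.8 at gd12 and 5321, 3033 and 3353 at gd14. It rose by 6.11 ± 0.32, and a second probe set by 4.43, a smaller change in the same direction. Majin rose by 4.26 ± 0.30 and Terb2 by 3.17 ± 0.30. Spdya, the activator of CDK2 at meiotic telomeres, read 59.1, 35.7 and 42.5 at gd12 and 2519.6, 1512 and 1858 at gd14 and rose by 4.68 ± 0.27, or by 2.79 on a second probe set. Of the shelterin genes, present in all cells, Terf1 rose by 0.73 ± 0.22, a call lost without gd14 sample 10 (adjusted p = 0.0954), gd14 sample 12 (0.0943) or gd12 sample 15 (0.19), and Terf2 did not pass (-0.59 ± 0.23), although it was called lower without gd14 sample 10 (-0.78, adjusted p = 0.0494).

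Genes of germ cell identity rose in 10 of 15 tested cases and fell in 2 (median 1.88). Ddx4 (vasa), an RNA helicase that marks germ cells from colonisation of the gonad on, had signals of 1389.9, 2982 and 581 at gd12 and 7258, 7432 and 9912 at gd14. It rose by 2.56 ± 0.38, and by 1.98 without gd12 sample 15. Taf7l, an X-linked TFIID subunit, went from 148 ± 29.9 to 6707 ± 890.3 and rose by 5.24 ± 0.39. Tex101, a germ cell surface protein, read 9.03, 115 and 1.99 at gd12 and 4773, 3309.9 and 2362 at gd14 and rose by 5.87 ± 0.47, or 6.54 without gd12 sample 14. Slc25a31, a germline ADP/ATP carrier, rose by 3.91 ± 0.34 to a mean of 13370 ± 1115. Dnd1, an RNA-binding protein that protects primordial germ cells, and the decapping enzyme Dcp2 fell by 0.98 ± 0.22 and 0.57 ± 0.13.

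The piRNA pathway, which silences transposons in the germline, rose in 14 of 19 tested genes and fell in none (median 1.65); 12 to 15 rose with 1 array left out. This list shares Ddx4 and Mov10l1 with that of germ cell identity. Gpat2, a mitochondrial partner of the PIWI protein MILI, had signals of 183, 312 and 114 at gd12 and 4621, 3559 and 4005 at gd14 and rose by 4.21 ± 0.31 (adjusted p = 3.18e-08). Mael, a component of germ granules, rose by 3.96 ± 0.34, and Gtsf1, a cofactor of PIWI proteins, by 3.82 ± 0.39. Gtsf1 went on to 12600 ± 686 at pnd2, above its gd14 mean of 1408 ± 440.2. Mov10l1, the helicase that feeds piRNA precursors into the pathway, rose by 3.34 ± 0.27. Tdrd12 (0.17 ± 0.31) and Tdrd5 (0.57 ± 0.26) did not pass, but Tdrd5 was called higher without gd14 sample 11 (0.87, adjusted p = 0.0297).

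Against this rise, genes of pluripotency and of primordial germ cells fell in 12 of 29 tested cases and rose in 1 (median -0.65); 7 fell without gd14 sample 10 and also 7 without gd12 sample 14. L1td1, an RNA-binding protein of pluripotent cells, had signals of 902, 857 and 748 at gd12 and 113, 180.1 and 193 at gd14. It fell by 2.19 ± 0.20 (adjusted p = 4.87e-07) without overlap. Tfap2c, a specifier of primordial germ cells, read 2393, 2949 and 1460.1 at gd12 and 259, 736 and 793 at gd14. It fell by 1.96 ± 0.44, while another probe set of it did not pass (-1.27, adjusted p = 0.0725). Prdm14, which works with TFAP2C, fell by 1.38 ± 0.33, and Tcl1, a coactivator of AKT, by 1.59 ± 0.26. Tcl1 was high again at pnd2 (4206 ± 711 against 172 ± 28.0 at gd14). Dppa2 fell by 1.67 ± 0.44, a call lost without gd14 sample 10 (adjusted p = 0.0856), gd12 sample 13 (0.0536) or gd12 sample 14 (0.0672). Lin28b, an inhibitor of let-7 microRNAs, was the single rise (1.22 ± 0.35), and it was lost without gd14 sample 10 (adjusted p = 0.0544), gd14 sample 12 (0.109), gd12 sample 13 (0.0688) or gd12 sample 15 (0.0673). Kit, the receptor of the survival factor KITL, did not pass (-0.49 ± 0.20), although it was called lower without gd14 sample 12 (-0.67, adjusted p = 0.0437).

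Pou5f1, the pluripotency factor OCT4, was named after its values were seen because it is the common reporter of these cells. Its signals were 332, 551 and 202 at gd12 and 126, 235 and 276 at gd14, which overlapped, and it did not pass the test (-0.65 ± 0.33, adjusted p = 0.2). Of the DNA methylation genes 2 of 11 fell and 1 rose (median -0.33), against 8.01% and 11.6% of all genes. Tet1, which oxidises methylcytosine and is needed for the activation of meiotic genes, read 2059.6, 2200.5 and 1974 at gd12 and 1147, 1178 and 1309 at gd14 and fell by 0.76 ± 0.15. The de novo methyltransferase Dnmt3b fell by 0.75 ± 0.20, a call lost without gd14 sample 11 (-0.68, adjusted p = 0.0525), when 1 gene fell. Dnmt1 (0.02 ± 0.18) did not pass, and neither did Dnmt3a (-0.18 ± 0.12), of which another probe set fell by 0.54 (adjusted p = 0.0296). The rise, Gadd45b (0.63 ± 0.21), was lost without gd14 sample 10 (adjusted p = 0.265), gd12 sample 13 (0.183) or gd12 sample 15 (0.102).

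Most Polycomb subunits did not pass the test. Of 24 tested genes 2 rose and 1 fell (median -0.01), shares below the 11.6% and 8.01% of all genes. The rises were Pcgf5, a subunit of a variant complex (1.34 ± 0.23, but 0.15 and not called on another probe set), and Ezh1, the methyltransferase of non-dividing cells (0.84 ± 0.15). For Ezh1 another probe set did not pass (0.47, adjusted p = 0.175). Phc2, a subunit of the canonical complex, fell by 0.74 ± 0.17. The histone-binding subunits Rbbp4 (-0.27 ± 0.13) and Rbbp7 (0.02 ± 0.08) did not pass.

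Genes of the later oocyte mostly did not pass the test. Of 21 tested, 3 rose and none fell (median 0.02); 1 fell without gd14 sample 12. The count of rises is near the 11.6% of all genes. Figla, a transcription factor of follicle formation, had signals of 27.1, 47.4 and 3.02 at gd12 and 403, 273 and 326 at gd14 and rose by 2.75 ± 0.33 (adjusted p = 1.26e-05) on its way to 1947 ± 334 at pnd2. Lhx8, a homeobox factor of the oocyte, rose by 1.81 ± 0.35, from near zero to a mean of 138 ± 50.6, and stood at 6360 ± 952 at pnd2. Sohlh2, a helix-loop-helix factor of the early germ line, read 661, 934 and 411 at gd12 and 1371, 2111 and 1899 at gd14 and rose by 1.43 ± 0.27.

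Of 30 genes of mitosis and the spindle 13 fell and 1 rose (median -0.43). Omitting gd14 sample 10 left 8 that fell, gd14 sample 12 left 7, gd12 sample 13 left 6 and gd12 sample 15 left 5. Ube2c, the ubiquitin-conjugating enzyme of the anaphase-promoting complex, had signals of 1009.8, 906 and 971 at gd12 and 374, 520.04 and 510.2 at gd14. It fell by 1.01 ± 0.18 (adjusted p = 0.00078). The kinase Aurkb fell by 0.97 ± 0.18 and the spindle protein Nusap1 by 0.75 ± 0.16. Aurka fell by 1.06 ± 0.25, though the mean over its probe sets did not pass (-0.62, adjusted p = 0.108), and Plk1 fell by 0.81 ± 0.20, a call lost without gd14 sample 12 (adjusted p = 0.0553) or gd12 sample 15 (0.0541). Bub1, a spindle checkpoint kinase that also guards sister centromeres in meiosis, read 3425, 3040.2 and 3076 at gd12 and 8035, 6097 and 7001 at gd14 and rose by 1.13 ± 0.17 (adjusted p = 0.000146). Top2a (0.04 ± 0.14) and Mad2l1 (0.30 ± 0.20) did not pass.

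DNA replication genes split, with 7 of 32 rising and 4 falling (median -0.15), against 11.6% and 8.01% of all genes. The count of rises was 4 without gd14 sample 10 or gd12 sample 15, and 2 fell without gd14 sample 12. Gins3, a subunit of the replicative helicase, read 376, 375 and 418 at gd12 and 826, 946 and 939 at gd14 and rose by 1.15 ± 0.17. Pole, the leading-strand polymerase, rose by 0.89 ± 0.19, and the origin-firing kinase Cdc7 by 0.60 ± 0.14. A dim second probe set of Cdc7 did not pass (0.24, adjusted p = 0.66). Rrm2, which supplies deoxynucleotides, had signals of 8066, 7213 and 7803 at gd12 and 4493, 4642 and 4569.7 at gd14 and fell by 0.75 ± 0.13. The initiation factor Mcm10 fell by 0.62 ± 0.14. Rfc4 and Lig1 rose by 0.55 ± 0.15 and 0.56 ± 0.14, calls lost without gd14 sample 10 or gd12 sample 15 for Rfc4 (adjusted p = 0.0646 and 0.0669) and without gd14 sample 12 for Lig1 (0.0539). Cdt1 and Mcm7 fell by 0.62 ± 0.15 and 0.43 ± 0.11, calls lost without gd14 sample 12 (adjusted p = 0.0514 and 0.0596) and, for Mcm7, also without gd12 sample 13 (0.0617) or gd12 sample 15 (0.0507). Pcna did not pass (-0.20 ± 0.10).

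Cyclins and their inhibitors rose in 4 of 17 cases and fell in 2 (median 0.22), against 11.6% and 8.01% of all genes. Ccne2, an S phase cyclin, had signals of 1503, 921 and 1299 at gd12 and 5828, 4309.8 and 4950.5 at gd14 and rose by 2.01 ± 0.21 (adjusted p = 1.99e-06). Ccnb3, an X-linked meiotic cyclin, read 19.9, 21.5 and 3.19 at gd12 and 802, 191 and 246 at gd14, with gd14 sample 10 the highest, and rose by 3.04 ± 0.41. The inhibitor Cdkn1b (p27) rose by 0.87 ± 0.15. Cdkn2d (p19) rose by 0.72 ± 0.21, a call lost without gd14 sample 11 (adjusted p = 0.0577), gd14 sample 12 (0.101), gd12 sample 13 (0.0639) or gd12 sample 15 (0.101). Cdk4, the G1 kinase, fell by 0.57 ± 0.12 with no overlap. Rbl1 (p107) fell by 0.44 ± 0.15, a call lost without any 1 of gd14 samples 10, 11 and 12 and gd12 samples 13 and 15 (adjusted p 0.0616 to 0.224), when 1 gene fell.

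Among genes of DNA damage signalling and cell death 2 of 15 rose and 3 fell (median -0.06), so that the rises are near the 11.6% of all genes. Atr, a kinase that senses DNA damage and unsynapsed axes, had signals of 1186, 1169.7 and 926 at gd12 and 7103, 4778 and 6511 at gd14 and rose by 2.44 ± 0.21 (adjusted p = 1.52e-07). Its other probe sets rose by 0.74 and 0.68, smaller changes in the same direction. Atm, which responds to DNA breaks, read 2336, 2001 and 1268 at gd12 and 5204, 3825 and 4908 at gd14 and rose by 1.33 ± 0.22. Chek2, the checkpoint kinase that removes oocytes with unrepaired breaks, fell by 0.64 ± 0.15 with no overlap. The death-promoting gene Bcl2l11 (BIM) fell by 0.80 ± 0.16, and the survival gene Mcl1 by 0.44 ± 0.11, a call lost without gd12 sample 15 (adjusted p = 0.0722). Other probe sets of Bcl2l11 changed by -0.59 (adjusted p = 0.0282), -0.56 (0.252) and -0.45 (0.294). Those of Mcl1 changed by -0.14 to -0.43, and some of them did not pass.

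**Figure D3:**
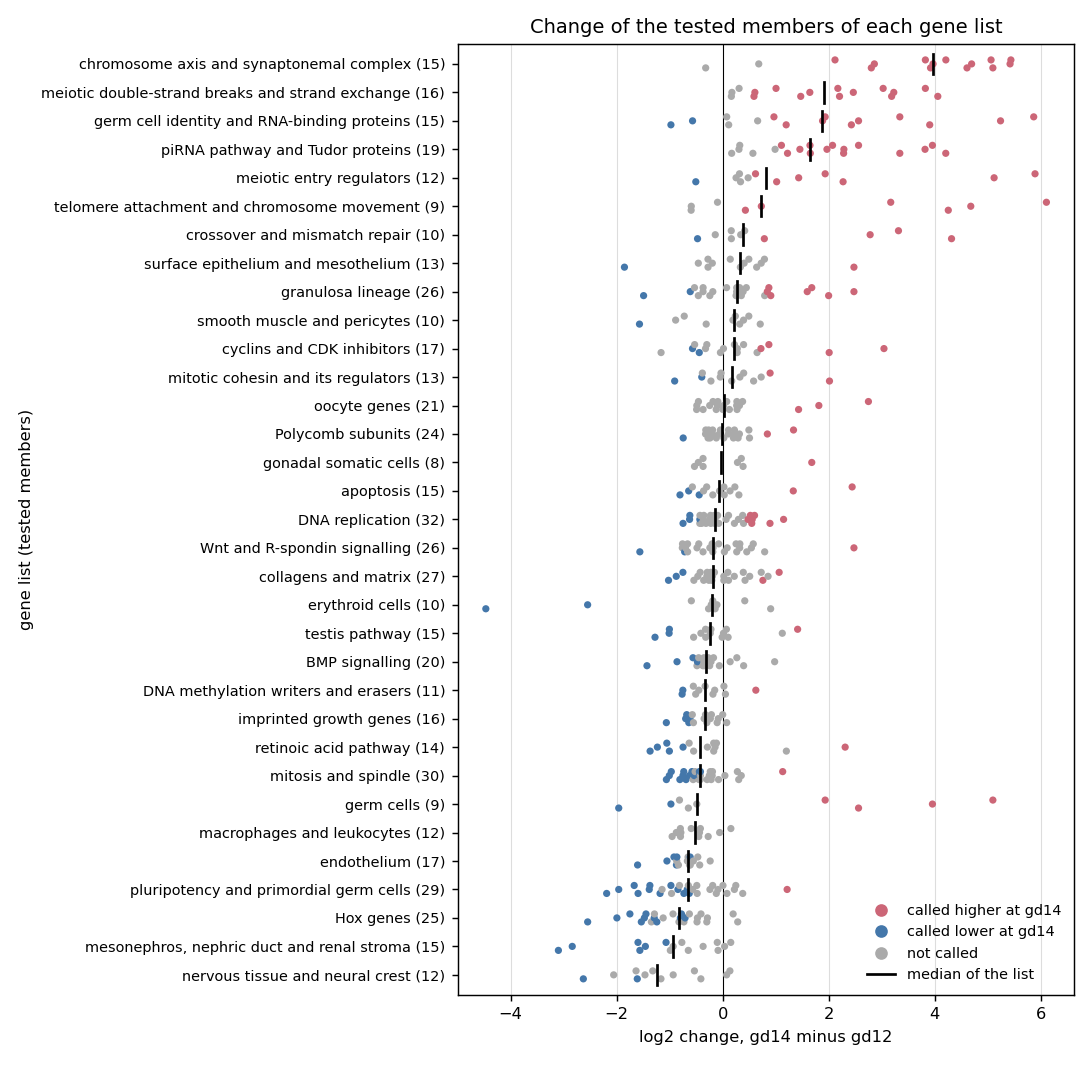
Log2 change from gd12 to gd14 (horizontal axis) of each tested member of the gene and marker lists with at least 8 tested members (rows, number tested in parentheses), sorted by their median (black bar). Red points rose, blue points fell and grey points did not pass the test; medians run from -1.24 for nervous tissue to 3.97 for the chromosome axis and synaptonemal complex.

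Genes listed for the granulosa lineage rose in 7 of 26 tested cases and fell in 2 (median 0.27). The count of rises was 3 without gd14 sample 10, gd12 sample 13 or gd12 sample 15. The list is not confined to 1 cell type, as Lgr5 is also on the surface epithelium list, and whole ovaries do not show which cells changed. Foxl2, the transcription factor that maintains ovarian identity, had signals of 223, 589 and 302 at gd12 and 1309.8, 1325 and 921 at gd14. It rose by 1.68 ± 0.23 (adjusted p = 4.68e-05), with gd12 sample 14 the highest of its stage. Lgr5, the R-spondin receptor of the ovarian surface and cortex, read 148, 361 and 273 at gd12 and 1296, 1546 and 1729.6 at gd14 and rose by 2.48 ± 0.24. The homeobox genes Irx3 and Irx5 rose by 1.60 ± 0.43 and 2.00 ± 0.55. Both calls were lost without gd14 sample 10 (adjusted p = 0.0615 and 0.0739), gd12 sample 13 (0.107 and 0.105) or gd12 sample 15 (0.0847 and 0.0526), and the change of Irx3 was 2.30 without gd12 sample 14. Nr2f2, a nuclear receptor of stromal cells, fell by 1.49 ± 0.23. Amhr2 (0.39 ± 0.24) and Kitl (0.45 ± 0.19) did not pass, but Kitl was called higher without gd12 sample 14 (0.71, adjusted p = 0.00559).

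Follistatin (Fst) rose by 0.91 ± 0.31 and Inhbb fell by 0.61 ± 0.21, at adjusted p = 0.0493 and 0.0485. Each call was lost with most arrays left out: Fst without gd14 samples 10, 11 or 12 or gd12 samples 13 or 15 (adjusted p 0.0895 to 0.282) and Inhbb without gd14 samples 10 or 11 or gd12 samples 14 or 15 (0.127 to 0.234). Without any of the last 4 arrays 1 gene of the lineage fell.

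Of the testis pathway genes 3 of 15 fell and 1 rose (median -0.23), against 8.01% and 11.6% of all genes. Gadd45g, an early signal of sex determination, read 890.1, 1449.5 and 1449.9 at gd12 and 494, 457 and 525 at gd14 and fell by 1.28 ± 0.22. Cyp26b1, given above, also belongs to this list. Cbln4 fell by 1.01 ± 0.29, a call lost without gd14 sample 10 (adjusted p = 0.121), gd12 sample 14 (0.0686) or gd12 sample 15 (0.0957). Hsd3b1, a steroid dehydrogenase, rose by 1.41 ± 0.27; 2 genes rose without gd12 sample 14. Of 26 Wnt and R-spondin genes 1 rose, Lgr5, and 2 fell (median -0.18), below the 11.6% and near the 8.01% of all genes; 3 rose without gd12 sample 14, and 1 fell without gd14 samples 10 or 12 or gd12 samples 13 or 15. Wnt9b, a ligand of the nephric duct that is also on the mesonephros list, fell by 1.56 ± 0.33. Wnt5a fell by 0.72 ± 0.23, a call lost with any array left out but gd14 sample 11 (adjusted p 0.0534 to 0.133). Ctnnb1 (-0.20 ± 0.08) and Lgr4 (-0.19 ± 0.15) did not pass.

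Bone morphogenetic protein genes fell in 4 of 20 tested cases and rose in none (median -0.32). The ligands Bmp5 and Bmp4 fell by 1.43 ± 0.38 and 0.86 ± 0.28, the inhibitory Smad7 by 0.56 ± 0.17 and the transducer Smad1 by 0.47 ± 0.15. These calls were close to the threshold. Omitting gd14 sample 11 or 12 left 2 that fell, omitting gd14 sample 10 or gd12 sample 15 left 1, and omitting gd12 sample 13 left none; without gd12 sample 15, 1 gene rose. Without gd12 sample 13 the adjusted p was 0.0765 for Bmp5, 0.108 for Bmp4, 0.0912 for Smad7 and 0.191 for Smad1. Smad4 did not pass by its brightest probe set (-0.35 ± 0.12), but its other probe sets fell by 0.45 (adjusted p = 0.0486) and 0.50 (0.0139). The mean over its probe sets was called lower (-0.43, adjusted p = 0.012), as was the first without gd14 sample 10 (-0.47, adjusted p = 0.0268). With the means over probe sets Smad1 (adjusted p = 0.168) and Smad7 (0.084) did not pass.

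Hox genes, which give axial identity to mesoderm, fell in 11 of 25 tested cases and rose in none (median -0.82); 7 fell without gd12 sample 13 or gd12 sample 15, and 17 with array quality weights. Hoxa9 had signals of 7704, 1999.6 and 5849 at gd12 and 786, 815 and 641 at gd14. It fell by 2.55 ± 0.40 (adjusted p = 0.000192), with sample 14 the lowest of the gd12 arrays. Another probe set of Hoxa9 did not pass (-0.99, adjusted p = 0.093). Hoxb3 read 1092, 584 and 1044 at gd12 and 222, 242 and 139 at gd14 and fell by 1.99 ± 0.30. Hoxc10 fell by 1.75 ± 0.41, fell by 2.44 without gd12 sample 14, and did not pass without gd12 sample 13 (adjusted p = 0.0536). Hoxb6 and Hoxd13 fell by 1.48 ± 0.41 and 1.53 ± 0.47. The call of Hoxb6 was lost without gd14 sample 10 (adjusted p = 0.0579), gd12 sample 13 (0.0775) or gd12 sample 15 (0.0745), and that of Hoxd13 with any array left out but gd12 sample 15 (0.05 to 0.156).

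Of 16 imprinted growth genes 5 fell and none rose (median -0.34); 3 fell without gd14 sample 10, and 2 without gd14 sample 12, gd12 sample 13 or gd12 sample 15. Mest read 13813, 12531 and 16528 at gd12 and 8309, 10060.5 and 7995 at gd14 and fell by 0.70 ± 0.14. The fetal growth factor Igf2 fell by 0.64 ± 0.18, a call lost without gd14 sample 12 (adjusted p = 0.0894) or gd12 sample 15 (0.0893), and Grb10 by 0.62 ± 0.15, lost without gd12 sample 13 (0.0515). Of 27 collagen and matrix genes 2 rose and 3 fell (median -0.19), near the 11.6% and 8.01% of all genes; 1 rose without any 1 array but gd14 sample 12, and 1 fell without gd14 sample 10 or gd12 sample 15. Col6a1 had signals of 1152, 1249 and 1211 at gd12 and 2069.8, 3223 and 2495 at gd14 and rose by 1.07 ± 0.21, and Col15a1 fell by 0.87 ± 0.21.

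Markers of other cell types moved with the comparison, and their part in the results above was not tested. The summed signal of 9 germ cell markers was 5366.4 to 14964.8 at gd12 and 34883.1 to 41846.9 at gd14, although the median change of the 9 was -0.49. The 4 that rose, Sycp3, Dazl, Ddx4 and Mael, held 93.9% to 96.8% of the gd14 sums and 40.7% to 61.3% of the gd12 sums. The other 5 summed to 3181.4 to 5790.8 at gd12 and 1246.0 to 2570.5 at gd14, the opposite order. That of 15 markers of mesonephros, nephric duct and renal stroma was 10608.3 to 11965.2 and 5140.0 to 6614.4. Endothelial markers (17) summed to 9367.1 to 10956.2 and 4569.6 to 8690.6, and erythroid markers (10) to 43963.4 to 50368.7 and 33996.6 to 38138.5. None of these 4 lists' sums overlapped between stages. Of the erythroid markers 2 were called lower, both embryonic globins, and the list median was -0.20. They were Hbb-bh1 (means 6466 at gd12 and 245 at gd14) and Hba-x (2611 and 422.6). Hbb-y, also an embryonic globin, held most of the erythroid sum on each array. The markers other than embryonic globins were not summed apart. Nervous tissue markers (12) summed to 1407.1 to 9723.2 at gd12, with sample 13 the highest, and to 851.1 to 1137.3 at gd14. Sums of macrophage (12), smooth muscle (10) and gonadal somatic (8) markers overlapped, while those of the 13 surface epithelium markers were 7980.9 to 8728.4 and 8895.2 to 14055.4.

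**Figure D4:**
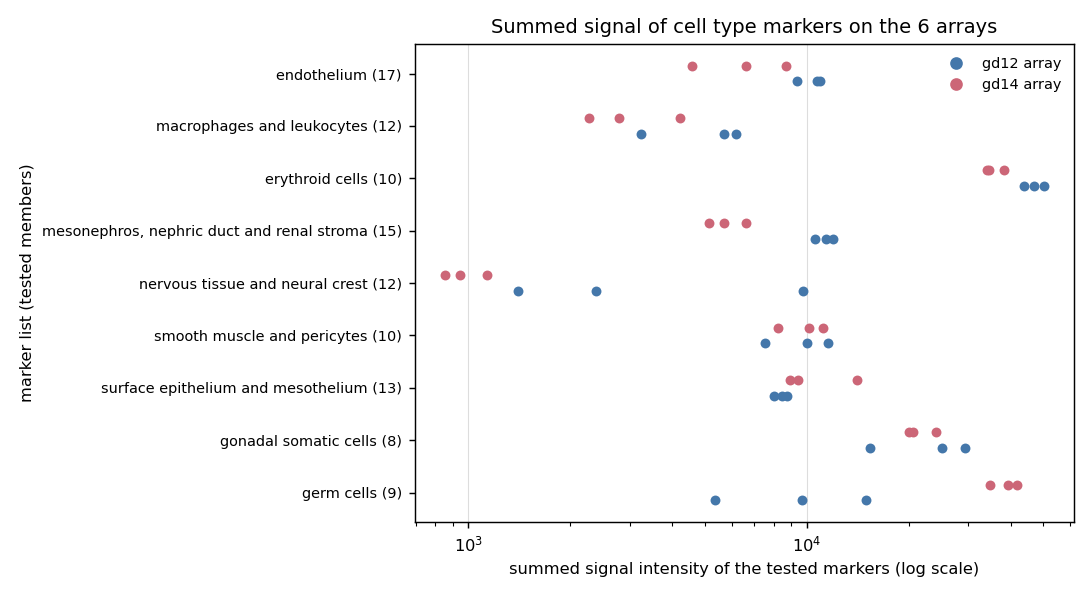
Summed signal intensity (horizontal axis, log scale) of the tested markers of 9 cell types (rows, number of markers in parentheses) on the 3 gd12 arrays (blue) and the 3 gd14 arrays (red). Germ cell sums are higher at gd14 (34883.1 and above, against 14964.8 and below) through 4 of the 9 markers, while the list median is -0.49. Sums of mesonephros, endothelium and erythroid markers are lower. In the erythroid list 2 of 10 markers were called lower, both embryonic globins.

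Within these lists the named members were as follows. Of the mesonephros list 6 of 15 fell and none rose (median -0.93); 2 fell without gd14 sample 12. Foxd1, a factor of renal stroma, read 1153, 422 and 962 at gd12 and 72.5, 81.0 and 42.4 at gd14 and fell by 3.10 ± 0.33 (adjusted p = 3e-06). Cdh16, a cadherin of the nephric duct, read 1497, 1517 and 1157 at gd12 and 161, 677 and 25.9 at gd14, with gd14 sample 11 the highest of its stage. It fell by 2.84 ± 0.75, fell by 3.76 without gd14 sample 11, and did not pass without gd14 sample 12 (-1.94, adjusted p = 0.0891). Of 17 endothelial genes 6 fell and none rose (median -0.65); 10 fell without gd14 sample 11, 3 without gd14 sample 12, 2 without gd14 sample 10 or gd12 sample 13, and 1 without gd12 sample 15. Plvap, a protein of fenestrated vessels, read 614, 565 and 703 at gd12 and 118, 263 and 198 at gd14 and fell by 1.60 ± 0.27.

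Within the erythroid list the calls were embryonic globins. Of 10 erythroid genes 2 fell and none rose (median -0.20). The embryonic beta-like globin Hbb-bh1 had signals of 9626, 3398 and 6374 at gd12 and 186, 222 and 327 at gd14 and fell by 4.47 ± 0.36 (adjusted p = 7.74e-08). The embryonic alpha-like Hba-x read 3151, 2187 and 2495 at gd12 and 389.6, 348 and 530.4 at gd14 and fell by 2.55 ± 0.28. Hbb-y, the other embryonic beta-like globin, did not pass by its brightest probe set (-0.14 ± 0.26, adjusted p = 0.769), which read 35420.1, 36689 and 36198 at gd12 and 32142, 34331 and 31771 at gd14, where the highest signal of any probe set on an array was 43197.4 to 51059.5. Another probe set fell by 1.37 (adjusted p = 0.00222), from a mean of 15670 to 6221, so the probe sets of Hbb-y disagree. Alas2, the heme synthesis enzyme of red cells, did not pass (0.91 ± 0.48).

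No gene of the macrophage list was called by limma (0 of 12, median -0.52), although 6 had an unadjusted p under 0.05. Without gd12 sample 14, 6 fell, and without gd14 sample 11, 3 did. Csf1r, the macrophage growth factor receptor, had a change of -0.80 ± 0.27 and passed without gd14 sample 11 (-1.08, adjusted p = 0.0143) or gd12 sample 14 (-1.05, adjusted p = 0.0161). With all arrays, another probe set of Csf1r was called lower (-0.89, adjusted p = 0.0275) and a further one was not (-0.22, 0.491). Of 12 nervous tissue genes 2 fell (median -1.24), 1 without gd14 samples 10 or 12 or gd12 sample 15, and none without gd12 sample 13. The neurofilament Nefm read 2862, 380.4 and 933 at gd12 and 121, 191 and 113 at gd14 and fell by 2.63 ± 0.62, fell by 3.30 without gd12 sample 14, and did not pass without gd12 sample 13 (-1.89, adjusted p = 0.0534). Rgs5, a pericyte gene, was the 1 gene of 10 in the smooth muscle list to fall (it fell by 1.57 ± 0.28, list median 0.22); 3 fell without gd12 sample 14 and 2 without gd14 sample 11. In the surface epithelium list 1 of 13 rose, Lgr5, and 1 fell, the cadherin Cdh1 (by 1.85 ± 0.21, list median 0.33). Of 8 gonadal somatic genes 1 rose, Foxl2, and none fell (median -0.04). In that list 2 rose without gd12 sample 14 and 1 fell without gd12 sample 13. The counts of the smooth muscle, surface epithelium and gonadal somatic lists were near or below the shares of all genes, 11.6% risen and 8.01% fallen. Of the 9 germ cell markers 4 rose and 2 fell, Tfap2c and Dnd1 (median -0.49).

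Other genes among the 15 largest falls were on none of these lists. Pnliprp2, a pancreatic lipase-related protein, read 2867, 1253 and 3031 at gd12 and 35.6, 19.4 and 27.9 at gd14. It had the largest change among the named falls and fell by 5.27 ± 0.44 (adjusted p = 1.52e-07), and its relative Pnliprp1 fell by 3.01 ± 0.48. Sprr2d, a small proline-rich protein of epithelia, read 756, 1779.6 and 1247 at gd12 and 11.3, 36.5 and 53.7 at gd14 and fell by 4.29 ± 0.43. Cldn8, a tight junction claudin, fell by 3.49 ± 0.41, Mgam, an intestinal-type maltase, by 3.04 ± 0.34, and Asb4 by 2.62 ± 0.28. Shisa3, an inhibitor of Wnt and FGF receptors, fell by 3.47 ± 0.52, and the matrix protein Efemp1 by 2.70 ± 0.53. The homeobox gene Alx1 fell by 2.69 ± 0.53, and fell by 3.47 without gd12 sample 14.

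At the other end, the largest rise was that of Tktl1, a transketolase-like gene on the X chromosome. Its signals were 45.5, 107 and 28.1 at gd12 and 10887, 5426 and 4839.6 at gd14, a change of 6.28 ± 0.31 (adjusted p = 3.05e-10), and its gd18 mean was 10600 ± 1382. Its other probe sets rose by 5.36 and, on a dim one with a gd14 mean of 114.7, by 1.85. Rhox13, an X-linked germ cell homeobox gene and the 1 of 4 tested Rhox genes to rise, read 177, 253 and 16.1 at gd12 and 8513, 5348 and 5005 at gd14. It rose by 5.45 ± 0.45, or 4.66 without gd12 sample 15. Tex16, also X-linked, read 7.11, 18.4 and 6.06 at gd12 and 2138, 1750.2 and 1618 at gd14 and rose by 5.49 ± 0.38. With Taf7l, 4 of the 15 largest rises lay on the X chromosome. Of the 446 tested X-linked genes 21.08% rose and 9.417% fell, against 11.24% and 7.94% of autosomal genes. X-linked genes were 3.554% of tested genes with a known chromosome, 6.465% of those that rose and 14.1% (22 of 156) of those that rose by at least 4-fold. The median change was 0.03 for X-linked and -0.02 for autosomal genes, and Xist did not pass (-0.42 ± 1.18, adjusted p = 0.855) unless gd16 sample 7 was left out of the fit (adjusted p = 0.0254).

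Genes were then followed past gd14. The change from gd12 to gd14 was tested against that from gd16 to gd18, which shares no array with it, and differed in 1884 of 12592 genes (15%), or 3314 probe sets. The gd16 group includes sample 7, and without it 1748 genes and 3049 probe sets differed. Among the 1884 were 847 of the genes that rose and 388 of those that fell, and all 15 of the largest rises and 14 of the 15 largest falls. Without sample 7 these counts were 799, 368, 15 and 14. The genes were picked by their change from gd12 to gd14, which is part of the tested difference. These counts are therefore a description. From gd16 to gd18, 80 of the genes that had risen rose again and 46 fell, and 55 of those that had fallen fell again and 53 rose. Without sample 7 the counts were 48, 23, 28 and 34. Stra8 changed by 5.12 and then by -0.22 (difference 5.34 ± 0.66, adjusted p = 3.92e-05, or 5.19 without sample 7). Ugt8a, a glycolipid synthase, had signals of 134, 216 and 87.2 at gd12 and 5234, 3881 and 4927 at gd14. It rose by 4.79 ± 0.28 and fell from gd16 to gd18 by 1.08 ± 0.28 (adjusted p = 0.0235), a difference of 5.87 ± 0.40. Without sample 7 the later fall did not pass (-1.02, adjusted p = 0.0804) and the difference was 5.81. A second probe set of Ugt8a rose by 1.87 from gd12 to gd14. Sycp3 rose in both intervals, by 5.10 ± 0.33 and 1.19 ± 0.33, with a difference of 3.90 ± 0.46 (adjusted p = 2.32e-05). Without sample 7 its later change did not pass (0.93, adjusted p = 0.142) and the difference was 4.16.

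Of the 1455 genes that rose, 738 had their highest stage mean at gd14, 278 at gd16, 182 at gd18, 254 at pnd2 and 3 at gd11. Of the 156 that rose by at least 4-fold, 114 were highest at gd14. Without gd16 sample 7, 721 were highest at gd14 and 309 at gd16, and 114 of the 156 again at gd14. Meioc was down to 1329 ± 326 at gd16 and 48.8 ± 43.0 at pnd2, and Dmc1 to 562 ± 13.1 and 99.8 ± 19.1. Sycp1 was higher at gd16 (3666 ± 519) than at gd14 (2305 ± 1136). Of the 1009 genes that fell, 560 were highest at gd11 and 323 at gd12. These stage means share the arrays of the comparison and are a description.

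**Figure D5:**
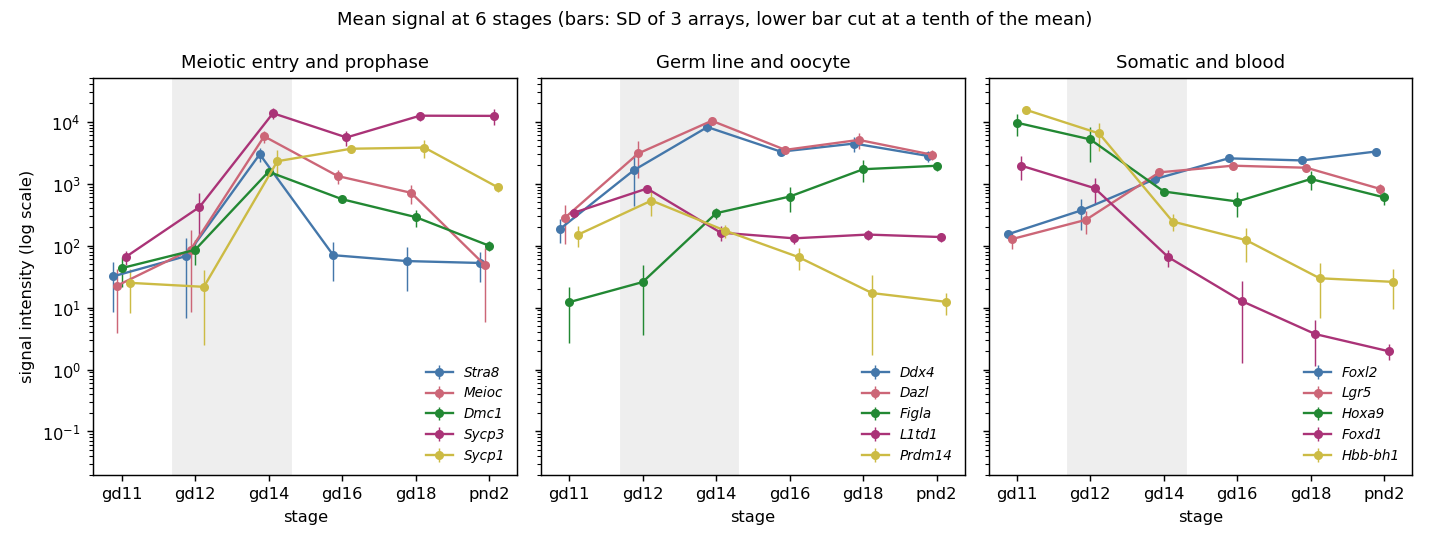
Mean signal intensity (vertical axis, log scale) at 6 stages (horizontal axis) of 15 genes in 3 groups, with the SD of 3 arrays as bars and the interval from gd12 to gd14 shaded. Stra8 is high at gd14 alone (mean 2990, against 70.1 at gd16), Sycp3 stays high, Figla climbs to pnd2, and L1td1, Foxd1 and Hbb-bh1 are lower at gd14 and later than at gd12.

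The gd12 arrays were not equally far from gd14. Sample 14 had the highest gd12 value in 867 of the 1455 genes that rose (59.59%), against 37.86% of all tested genes, and the lowest in 631 of the 1009 that fell (62.54%, against 35.59%). It was the highest gd12 array for Stra8, Meioc, Dazl, Ddx4, Sycp3 and Foxl2, and the lowest for Hoxa9 and Hbb-bh1. As the calls used these arrays, the shares are a description. Without sample 14, 4200 probe sets were called.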

How the data were processed

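Whole-ovary RNA was amplified in 2 rounds and hybridised to Affymetrix Mouse430_2 arrays, per the labels. The deposited values are signal intensity per probe set on a linear scale, made with GCOS per the submitters' processing notes. The version and the background handling were not given in the sources used here. The mean of each array after cutting 2% at each end was 500, so the arrays were taken as already scaled. Detection calls were not used here, and the precision is limited by the number of arrays.

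Values were transformed as log2(signal + 31), the 25th percentile. Probe sets whose mean exceeded the median signal, 116.05, in at least 1 stage were tested (26431 of 45101, control probe sets left out). limma 3.58.1 in R 4.3.3 fitted 18 ovary arrays with 1 term per stage (12 residual degrees of freedom, lmFit and eBayes with trend, two-sided). P-values were adjusted by Benjamini-Hochberg over all tested probe sets and called under 0.05. The reference array was left out. A gene was represented by its probe set with the highest mean signal among those annotated to it alone (22163 probe sets, 12592 genes); levels of different probe sets were not compared. Other probe sets are not given for every named gene, so disagreement between probe sets can also exist where none is mentioned. The sources differ on whether a sample is a pool or 1 animal, and p-values measure the spread between these samples only.

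Named genes were the 15 largest rises and 15 largest falls among called genes with arrays apart, leaving out clone and predicted names; of each list up to 5 called members in each direction and 2 uncalled ones with the highest signal; and every tested member of the entry, retinoic acid, axis and sex check lists. Members and lists were chosen with earlier results of these data known. On simulated data, the fit was tested on 26431 probe sets for gd14 versus gd12: of 50 probe sets each, 6% with a log2 change of 0.5, 62% with 1, 90% with 2 and 100% with 3 were recovered, with 8 false calls. Far fewer probe sets were changed there than were called in the data. The adjustment of p-values depends on that number, so these shares need not hold for the data. Alternatives were other pseudocounts, normalizations, filters, sets of arrays, array weights, probe set means and a 2-fold threshold. Promoter windows came from RefSeq (GRCm38.p6), with 10175 tested genes matched. Python 3.11.15, pandas 2.3.3 and matplotlib 3.10.9 were also used.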

Additional observations from a re-analysis of the deposited data

Results flagged for a closer look

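The change from gd12 to gd14 differed from that from gd16 to gd18 in 1884 of 12592 genes, by the limma interaction test at an adjusted p under 0.05. The intervals share no array but share the estimate of spread. The gd16 group holds sample 7, whose Xist signal of 44.8 goes against its label, and 1748 genes differed without it. From gd16 to gd18, 46 of the genes that had risen were called lower and 53 of those that had fallen higher (23 and 34 without sample 7). Ugt8a was among the genes called in opposite directions. It rose by 4.79 from gd12 to gd14 and fell by 1.08 on the log2 scale from gd16 to gd18, a difference of 5.87 (adjusted p = 7.75e-08). Without gd16 sample 7 the later fall did not pass (-1.02, adjusted p = 0.0804), and the difference was 5.81.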

How the results depend on the processing

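No paired analysis was possible because the replicate numbers differ in every stage. With a 2-fold threshold added, 1643 probe sets were called (1059 higher, 584 lower), 629 genes higher and 320 lower, and 2073 probe sets in the comparison of intervals. With array quality weights 2997 probe sets and 1528 genes were lower. With 1 array left out, the counts were 2605 to 4200 probe sets, 1667 to 2384 higher and 938 to 1816 lower, 1007 to 1439 genes higher and 511 to 956 lower, and 2311 to 3380 in the comparison of intervals, which called 3314 otherwise. The lowest counts of probe sets and of genes lower at gd14 came without gd12 sample 15. The gene counts and stage means without gd16 sample 7 were chosen after seeing the data. With the mean over the probe sets of a gene, the calls of E2f6 (adjusted p = 0.197), Terf1 (0.0774), Fst (0.0679), Inhbb (0.267), Wnt5a (0.0958), Rbl1 (0.218) and Grb10 (0.0748) were lost, and Csf1r was called lower (0.0439). Under the other settings the count of called probe sets was 3580 to 6407. The added threshold limits calls by construction, and the cause of the other shifts was not tested. Fewer arrays did not always give fewer calls. With only the 6 arrays compared 4414 probe sets were called, and without gd16 sample 7 the fit called 4536. Of 4136 values of 231 named genes under alternatives, 3788 kept their side of the threshold, 293 lost a call and 55 gained one. Of the 3788, 36 values in 19 genes changed sign while uncalled in both settings. Among called values 0 changed sign. Of 156 called named genes, 106 kept the call in all settings but the 2-fold threshold. On simulated data, with far fewer changed probe sets than were called here, 6% of changes of 0.5 were recovered. Small changes can be missed, but that share need not hold for the data.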

Other observations

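Among genes with several tested probe sets, 12 of 5641 had probe sets called in opposite directions from gd12 to gd14. They were named after their values were seen. For Mtm1, a lipid phosphatase, probe sets fell by 1.84 and 1.63 and rose by 0.77. For Ints6, a subunit of the Integrator complex, one fell by 1.08 and another rose by 1.28. For Dicer1, the enzyme that matures microRNAs, one fell by 1.0 and another rose by 0.52. Which transcript part each probe set reads was not analysed here.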
